A study of Mus musculus with 64 samples.

Results

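The genes of the proteasome were examined in mouse livers in which Acsf3 had been knocked down. Members were the genes of the count table whose symbol begins with Psma to Psmg followed by a number. The immunoproteasome genes Psmb8, Psmb9 and Psmb10 were left out. The rule found 45 genes among 55487, and 43 of them passed the filter on low counts that left 10097 genes for testing. The remaining members were Psma8, a testis alpha subunit with 60 UMIs (unique molecular identifiers, 1 per captured transcript) in sh-Acsf3 and 55 in sh-Ctl over all libraries, and Psmb11, a thymus beta subunit with 0 UMIs in both. All mice were C57BL/6J males fed ad libitum. One group had received an AAV8 vector with a short hairpin RNA that lowers Acsf3 in the liver (sh-Acsf3), and the other group served as control (sh-Ctl). Livers were taken 4 weeks later around the clock every 3 h, at 8 zeitgeber times (ZT0 is lights on), with 4 replicates for each of the 16 groups. The age of the mice is not given in the sources used here, nor is it said that each replicate was a separate animal, so p-values measure the spread between these 64 libraries.

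The proteasome degrades proteins that carry ubiquitin chains. Its core particle is a barrel of alpha rings, which gate the entrance, around beta rings, which hold the protease sites. A regulatory particle on the end of the barrel binds the ubiquitin chain, removes it, unfolds the substrate with a ring of ATPases and threads it into the core. Acsf3 encodes a mitochondrial enzyme that joins malonate to coenzyme A.

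The sh-Acsf3 libraries held 0.839 to 9.35 M UMIs (median 2.03) and the sh-Ctl libraries 1.48 to 6.06 M (median 3.13). Acsf3 itself fell to 2.56 ± 1.68 CPM (UMIs per 1 M of a library, TMM-scaled) in sh-Acsf3 livers, against 11.3 ± 2.42 CPM in sh-Ctl livers (SD within times, n = 32 each), a log2 difference of -2.23 ± 0.13 (SE, adjusted p = 1.82e-21, edgeR). The marker sums and Saa1 levels that follow are CPM by library size alone, without TMM scaling, and the sums cover tested and untested markers. The hepatocyte markers took at least 62194 CPM in every library. Markers of other cells moved with the treatment: 8 of 10 stellate cell and fibroblast markers, 6 of 11 Kupffer cell and macrophage markers and all 6 tested of 12 lymphocyte markers rose in sh-Acsf3, and none of these fell. A gene could pass the count filter through the treatment in which it is high. The other lymphocyte markers failed that filter, so the rise of all tested ones carries little weight on its own. The summed stellate markers ran from 323 to 884 CPM in sh-Acsf3 and from 162 to 378 CPM in sh-Ctl, and the lymphocyte markers from 23.4 to 191 CPM in sh-Acsf3 and from 6.65 to 35.6 CPM in sh-Ctl. The median sum of macrophage markers was 279 CPM in sh-Acsf3 and 194 CPM in sh-Ctl. In 4 libraries, all sh-Ctl, the acute-phase gene Saa1 exceeded 1000 CPM, and in 8 libraries, 6 of them sh-Acsf3 and 2 sh-Ctl, exocrine pancreas markers exceeded 100 CPM. The part of these differences in the results below was not tested, except where a value without the libraries is given. In bulk tissue, fewer cells of a type and less RNA per cell cannot be told apart.

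Proteasome genes are known for promoters with an antioxidant response element, through which the factor Nfe2l1 can raise them together, and many housekeeping promoters hold an ETS factor site. The 150 bases before the RefSeq start site (GRCm38.p6) are shown for the catalytic genes Psmb5 and Psmb6, which hold an antioxidant response element core (TGACNNNGC on either strand, in capitals), for Psmc1, Psmd6 and Psmd11 of the regulatory particle, which hold an ETS core (CCGGAAG on either strand, in capitals), and for Psma7, which holds neither. They lie at chr14:54617996-54618145 (minus strand, Psmb5), chr11:70525207-70525356 (plus, Psmb6), chr2:180042465-180042614 (minus, Psma7), chr12:100110052-100110201 (plus, Psmc1), chr14:14120946-14121095 (minus, Psmd6) and chr11:80428465-80428614 (plus, Psmd11).
Psmb5: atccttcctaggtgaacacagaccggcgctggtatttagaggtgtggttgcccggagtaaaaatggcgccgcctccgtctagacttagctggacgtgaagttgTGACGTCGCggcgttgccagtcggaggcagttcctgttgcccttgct
Psmb6: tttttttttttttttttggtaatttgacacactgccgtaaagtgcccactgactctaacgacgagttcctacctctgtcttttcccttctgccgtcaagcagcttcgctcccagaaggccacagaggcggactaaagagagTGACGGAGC
Psma7: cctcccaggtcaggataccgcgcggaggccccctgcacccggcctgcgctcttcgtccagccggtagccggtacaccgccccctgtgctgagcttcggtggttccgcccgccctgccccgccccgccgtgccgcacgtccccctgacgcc
Psmc1: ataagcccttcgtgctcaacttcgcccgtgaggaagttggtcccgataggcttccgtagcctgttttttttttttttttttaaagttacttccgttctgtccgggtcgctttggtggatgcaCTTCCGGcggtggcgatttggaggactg
Psmd6: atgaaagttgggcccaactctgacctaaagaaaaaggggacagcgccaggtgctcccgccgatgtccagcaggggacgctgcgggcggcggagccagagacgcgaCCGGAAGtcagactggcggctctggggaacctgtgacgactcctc
Psmd11: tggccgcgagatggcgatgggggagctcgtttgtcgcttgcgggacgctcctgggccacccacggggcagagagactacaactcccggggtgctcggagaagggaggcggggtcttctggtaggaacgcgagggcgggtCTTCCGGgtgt
Windows of 300 bases (250 before to 50 after the start) were given for 37 of the 45 members. The ETS core was found in 9 of 14 regulatory particle genes (64.3%) and 1 of 12 core genes (8.33%), beside 21.5% of 8007 liver-tested genes and 9.93% of all 27025 genes with a window. The antioxidant response element core was found in 6 of the 37 members (16.2%), beside 17.3% of the liver-tested genes and 14% of all. A further 3 motifs were searched on both strands: CCAAT stood in 35.1% of members, 42.8% of liver-tested genes and 41.1% of all, CACGTG in 8.11%, 12.1% and 8.09%, and TATAAA in 8.11%, 9.27% and 15.7%. No matches of different motifs overlapped in the members' windows. These matches describe letters in a window and not bound sites.

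Averaged over the 8 times, 14 of 43 proteasome genes fell in sh-Acsf3 livers and none rose (edgeR quasi-likelihood test, Benjamini-Hochberg adjusted p under 0.05 over all genes). Across the tested genes, 14.5% passed that threshold, made up of 6.21% that fell and 8.26% that rose. The falls were small. The called members ranged from -0.13 to -0.24 on the log2 scale, that is from 91.6% down to 84.9% of the sh-Ctl level. All 14 belonged to the core or to the regulatory particle. Of 14 core genes 8 fell (median log2 difference -0.13), and of 17 regulatory particle genes 6 fell (median -0.11). Of 12 activators, inhibitors and assembly chaperones 0 fell (median -0.00311). Among these 12, Psmg2, Psmg3 and Psmd10 had standard errors of 0.08, 0.07 and 0.10, so falls of the core's size could be missed in them. The median over the 43 members was -0.10, beside -0.00849 over all genes tested, and 83.7% of members lay below 0, beside 52.7% of all genes. The count was 13 without the 4 libraries high in Saa1 and 14 without the 8 with pancreas markers. Scaling by library size alone gave 4 of 43 (member median -0.05, all-gene median 0.046), testing every gene with a UMI gave 8, and leaving out replicate 1 or replicate 3 of every group gave 8 or 9.

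**Figure D1:**
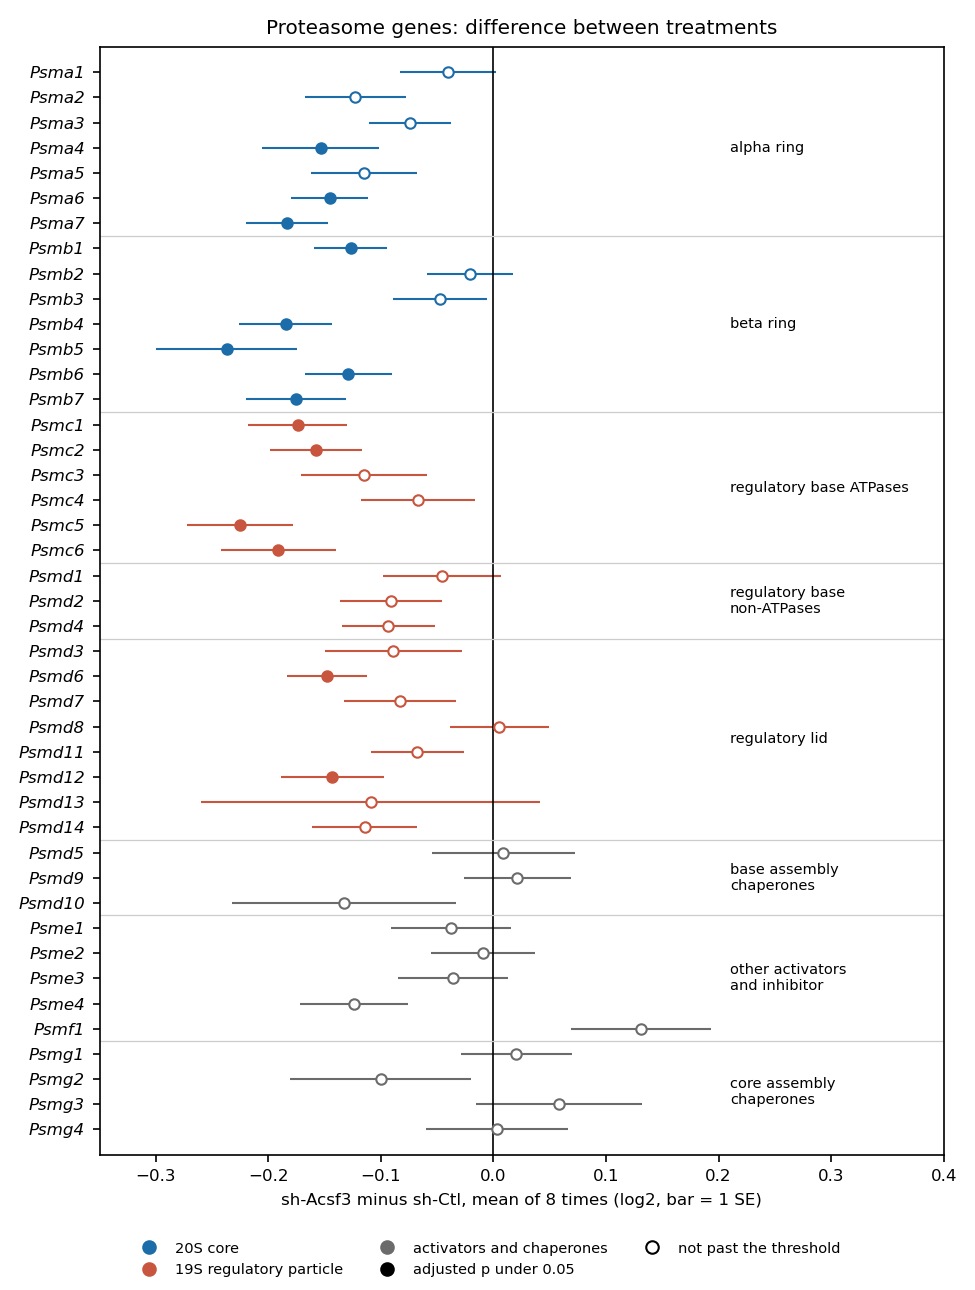
Log2 difference between sh-Acsf3 and sh-Ctl, averaged over 8 times, for the 43 tested proteasome genes (points, bars of 1 SE), ordered by role from the alpha ring at the top to the core assembly chaperones at the bottom. Filled points passed an adjusted p of 0.05. All 14 of them lie left of 0 and none belongs to the bottom 12 genes.

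In the alpha ring, 3 of 7 genes fell. Psma7, one of its subunits, ranged from 195 to 306 CPM in the 32 sh-Acsf3 libraries with a median of 232, and from 223 to 331 CPM in the 32 sh-Ctl libraries with a median of 262. The groups overlapped over most of their range, but the mean was lower in sh-Acsf3 at all 8 times. Its log2 difference was -0.18 ± 0.04 (SE, adjusted p = 0.000151, edgeR), the smallest p among the members. Psma6 fell by 0.15 ± 0.03 (adjusted p = 0.00155) and Psma4 by 0.15 ± 0.05 (adjusted p = 0.036), both in edgeR. Psma4 lost its call without any one of the 4 replicate numbers, without the Saa1-high libraries and without the libraries with pancreas markers. The other alpha genes, Psma1, Psma2, Psma3 and Psma5, lay between -0.12 and -0.04.

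In the beta ring, 5 of 7 genes fell, among them all 3 that carry the protease sites. Psmb5, the chymotrypsin-like subunit and the target of the drug bortezomib, ranged from 19.6 to 45.9 CPM in sh-Acsf3 (median 30.1) and from 21.2 to 47.2 CPM in sh-Ctl (median 35.8). This was the largest fall among the members, -0.24 ± 0.06 (adjusted p = 0.00499, edgeR), to 84.9% of the sh-Ctl level. Psmb7, the trypsin-like subunit, ranged from 53.3 to 87.7 CPM in sh-Acsf3 (median 71.7) and from 50.2 to 102 CPM in sh-Ctl (median 84.0), a difference of -0.18 ± 0.04 (adjusted p = 0.003). Psmb6, the caspase-like subunit, ranged from 116.0 to 177 CPM in sh-Acsf3 (median 140.5) and from 127 to 198 CPM in sh-Ctl (median 152), a difference of -0.13 ± 0.04 (adjusted p = 0.0148). For each of the 3 genes the mean was lower in sh-Acsf3 at 8 of 8 times, while single libraries overlapped widely. Of the structural beta subunits, Psmb4 fell by 0.18 ± 0.04 (adjusted p = 0.000811) and Psmb1 by 0.13 ± 0.03 (adjusted p = 0.00376), while Psmb2 at -0.02 ± 0.04 and Psmb3 at -0.05 ± 0.04 did not pass (edgeR). The calls of the catalytic genes rested on single replicate numbers. Without replicate 1 of every group Psmb5 stood at -0.18 with an adjusted p of 0.126 and Psmb6 at -0.08 with 0.275 (edgeR). Psmb6 was also lost without replicate 4 (adjusted p = 0.0607), and Psmb7 without replicate 3 (-0.15, adjusted p = 0.0627).

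The genes of the immunoproteasome replace these 3 subunits in immune cells and under interferon. Psmb9, the counterpart of Psmb6, rose by 0.35 ± 0.09 (adjusted p = 0.0029, edgeR), to 25.0 CPM in sh-Acsf3 against 19.7 CPM in sh-Ctl, while Psmb10 at 0.12 ± 0.08 and Psmb8 at 0.08 ± 0.11 did not pass. Without replicate 3 of every group Psmb9 stood at 0.26 with an adjusted p of 0.169. Taking the 6 genes together, the immunoproteasome genes held 24.8% ± 3.16 of the summed CPM in sh-Acsf3 and 20.6% ± 4.44 in sh-Ctl (SD, n = 32 each). Lymphocyte and macrophage markers rose in the same libraries, while of 9 tested interferon-response genes 2 rose and 2 fell. The part of either in the Psmb9 difference was not tested.

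**Figure D2:**
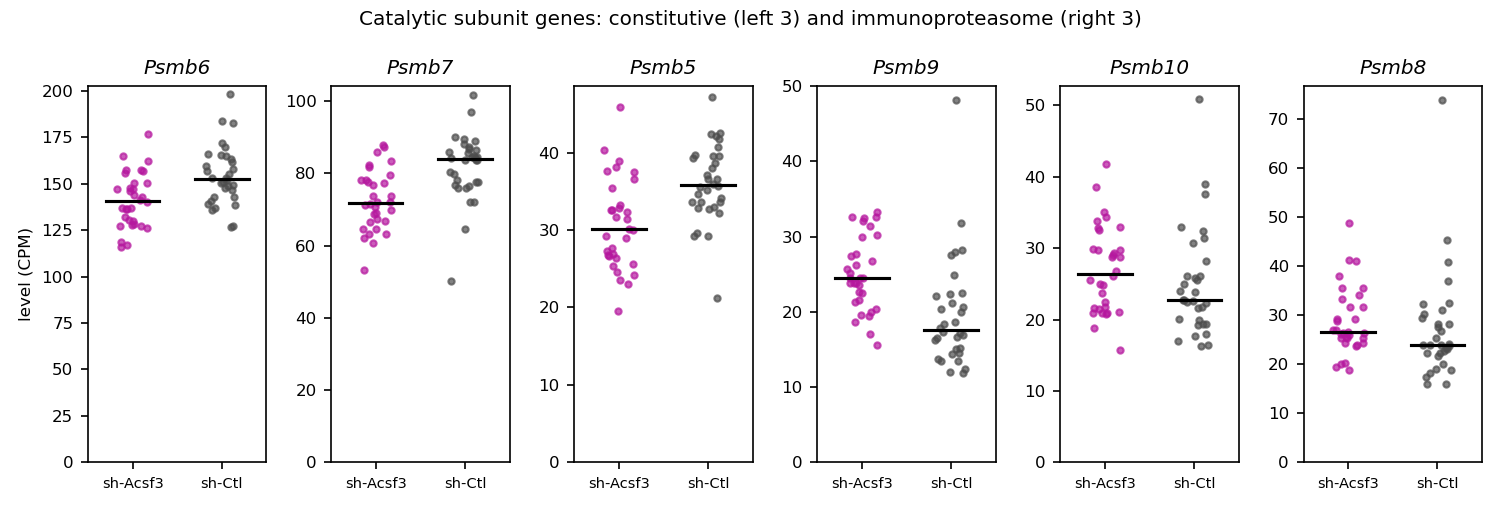
CPM of the 3 constitutive catalytic genes (Psmb6, Psmb7, Psmb5) and their immunoproteasome counterparts (Psmb9, Psmb10, Psmb8) in the 32 sh-Acsf3 and 32 sh-Ctl libraries, 1 point per library and a bar at the median. The sh-Acsf3 median is the lower one for the constitutive genes, 30.1 against 35.8 CPM for Psmb5, and the points of the groups overlap in every panel.

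In the regulatory particle 4 of 6 genes of the ring of ATPases fell, with 0 of 3 other base genes and 2 of 8 lid genes. Across all tested genes 6.21% fell. The median log2 differences of these parts were -0.17, -0.09 and -0.10, and the difference between the parts was not tested. Psmc5 ranged from 26.9 to 48.7 CPM in sh-Acsf3 (median 36.0) and from 33.5 to 53.7 CPM in sh-Ctl (median 42.4). The difference was -0.23 ± 0.05 (adjusted p = 0.000303, edgeR), with the sh-Acsf3 mean lower at 8 of 8 times. Psmc6 fell by 0.19 ± 0.05 (adjusted p = 0.00543), Psmc1 by 0.17 ± 0.04 (adjusted p = 0.003) and Psmc2 by 0.16 ± 0.04 (adjusted p = 0.00401). Psmc3 at -0.12 ± 0.06 and Psmc4 at -0.07 ± 0.05 did not pass. Without replicate 1 the calls of Psmc1 and Psmc2 were lost, and without replicate 3 that of Psmc6.

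The base genes that are not ATPases are the ubiquitin receptor Psmd4 and the scaffolds Psmd1 and Psmd2, at -0.09 ± 0.04, -0.05 ± 0.05 and -0.09 ± 0.05. In the lid, Psmd6 ranged from 61.4 to 89.2 CPM in sh-Acsf3 (median 74.8) and from 73.8 to 97.2 CPM in sh-Ctl (median 83.3), and fell by 0.15 ± 0.04 (adjusted p = 0.002, edgeR). Its groups overlapped over much of their range. Psmd12 fell by 0.14 ± 0.05 (adjusted p = 0.0239), a call lost without replicate 1, 3 or 4 and without the Saa1-high libraries. Psmd14, the enzyme that removes the ubiquitin chain, stood at -0.11 ± 0.05 and did not pass. Psmd8 stood at 0.00530 ± 0.04, and Psmd13, which overlaps Sirt3 on the other strand, was measured with 633 UMIs in sh-Acsf3 and 616 in sh-Ctl and stood at -0.11 ± 0.15. Over the 4 leave-one-replicate fits, Psma6, Psma7, Psmb4, Psmc5 and Psmd6 were called in every one, and Psma7, Psmb4, Psmb5 and Psmc5 with library size alone.

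None of the 12 remaining genes passed. The base assembly chaperones Psmd5, Psmd9 and Psmd10 lay between -0.13 and 0.02, and the core assembly chaperones Psmg1 to Psmg4 between -0.10 (Psmg2) and 0.06. Psme4, the nuclear activator that caps the core in place of the regulatory particle, ranged from 35.2 to 61.2 CPM in sh-Acsf3 (median 46.6) and from 38.3 to 66.1 CPM in sh-Ctl (median 51.7). Its difference was -0.12 ± 0.05 (adjusted p = 0.0739, edgeR), and it was called without the Saa1-high libraries (-0.15, adjusted p = 0.0254), without the pancreas libraries (-0.15, adjusted p = 0.0385) and without replicate 2 (-0.19, adjusted p = 0.0153). The groups overlapped widely. The interferon-induced activators Psme1 and Psme2 stood at -0.04 ± 0.05 and -0.00934 ± 0.05. Psmf1, an inhibitor of the core in vitro, had the highest value, 0.13 ± 0.06 (adjusted p = 0.156).

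The core and the regulatory particle were lower together, and their ratio moved little. The 14 core genes summed to 1481 ± 62.0 CPM in sh-Acsf3 and 1615 ± 71.6 CPM in sh-Ctl, and the 17 regulatory genes to 1077 ± 60.2 CPM in sh-Acsf3 and 1160 ± 67.4 CPM in sh-Ctl (SD within times, n = 32 each). The other 12 genes summed to 483 ± 31.0 CPM in sh-Acsf3 and 489 ± 43.9 CPM in sh-Ctl. The log2 ratio of core to regulatory sum was 0.46 ± 0.07 in sh-Acsf3 and 0.48 ± 0.06 in sh-Ctl, a smaller difference than the spread between libraries of a group. Between the per-gene medians of core and regulatory particle lay -0.02 on the log2 scale (core minus regulatory). This value was -0.08 without replicate 1 of every group, -0.04 without ZT9 and between -0.04 and -0.01 without a single library. No test was made over these sums, because the members were chosen with earlier results of these data known. None was made over the members either, because they share libraries and are not replicates.

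At single times the difference passed for 1 of 43 members, Psmc1 at ZT9, where 0.357% of all tested genes passed and 0.0495% fell. At the other times 0 members passed, beside 0.515% of all genes at ZT0, 0.0693% at ZT3, 0.218% at ZT6, 1.4% at ZT12, 0.0297% at ZT15, 0.168% at ZT18 and 0.317% at ZT21. Members at an unadjusted p under 0.05 numbered 4 at ZT0 (9.3%, beside 9.36% of all genes), 1 at ZT3 (2.33%, beside 6.3%), 2 at ZT6 (4.65%, beside 7.07%) and 11 at ZT9 (25.6%, beside 8.84%). They numbered 7 at ZT12 (16.3%, beside 13.2%), 1 at ZT15 (2.33%, beside 5.35%), 3 at ZT18 (6.98%, beside 5.79%) and 4 at ZT21 (9.3%, beside 11.6%). Psmc1 had 40.1, 42.0, 45.2 and 40.0 CPM in the 4 sh-Acsf3 livers, against 71.2, 62.9, 53.7 and 50.3 CPM in the 4 sh-Ctl livers. All sh-Acsf3 livers lay below all sh-Ctl livers, and the difference was -0.51 ± 0.12 (adjusted p = 0.0398, edgeR). The call was lost without any one of 9 libraries: all 4 sh-Acsf3 livers of ZT9, sh-Acsf3 ZT3 replicates 1 and 3 and ZT15 replicate 3, and sh-Ctl ZT9 replicates 1 and 2. Without the libraries high in Saa1, among them the sh-Ctl ZT9 liver with 71.2 CPM, the difference was -0.39 (adjusted p = 0.407), and over the single-library fits it ran from -0.57 to -0.40.

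**Figure D3:**
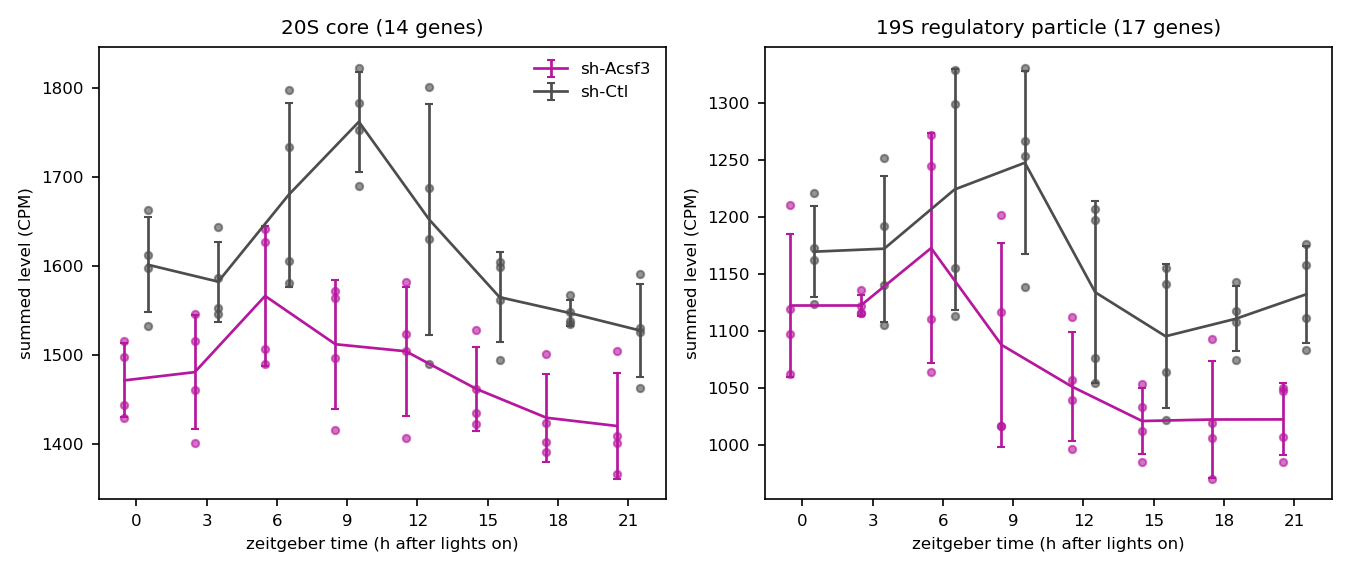
Summed CPM of the 14 core genes (left) and the 17 regulatory particle genes (right) by zeitgeber time. Each library is 1 point, with the mean ± SD of 4 libraries, and sh-Acsf3 is drawn left of sh-Ctl at each time. The sh-Acsf3 mean of the core is the lower one at all 8 times, by the most at ZT9 (1512 against 1762 CPM, with TMM scaling). The vertical axes do not start at 0.

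ZT9 had the most members at an unadjusted p under 0.05. After Psmc1 the smallest unadjusted p-values at any single time were those of Psmb6 at ZT9, with 117, 143, 157 and 137 CPM in sh-Acsf3 against 183, 184, 172 and 198 CPM in sh-Ctl (-0.41 ± 0.11, adjusted p = 0.0754), and of Psmc3 at ZT9, with 53.5, 58.0, 70.9 and 58.9 CPM in sh-Acsf3 against 96.8, 89.8, 75.7 and 74.0 CPM in sh-Ctl (-0.47 ± 0.16, adjusted p = 0.249, edgeR). In both genes all sh-Acsf3 livers lay below all sh-Ctl livers. That was so for 7 of 43 members at ZT9, beside 2.2% of all tested genes, for 1 at ZT0 (1.96%), 2 at ZT3 (1.84%), 4 at ZT6 (1.9%), 2 at ZT12 (2.96%), 2 at ZT15 (1.61%), 3 at ZT18 (1.7%) and 2 at ZT21 (2.96%). The member median at ZT9 was -0.17 (0.03 when scaled by library size alone, which moved the median of all genes there by 0.19). At the other times it lay between -0.10 and -0.06, and library size alone turned it to 0.01 at ZT12. Relative to the median of all genes, members stood at -0.16 at ZT9 under both scalings. This agreement adds no support, because a change of scaling moves all genes of a library alike.

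With TMM scaling, the summed core level lay below that of sh-Ctl without overlap at ZT0, ZT9 and ZT18. At ZT3 the groups all but touched (highest sh-Acsf3 sum 1546.2 CPM, lowest sh-Ctl sum 1546.29 CPM). The summed regulatory level lay below without overlap at ZT21, and the sum of the other 12 genes at ZT9. A share over all genes was not computed for such sums. At ZT9 the core sum was 1512 ± 72.5 CPM in sh-Acsf3 and 1762 ± 55.9 CPM in sh-Ctl (SD, n = 4 each), 85.8% of the sh-Ctl level. At the other times it was 91.1% to 93.6% of that level. With ZT9 left out, 12 of 43 members still fell, with the calls of Psmb6 and Psmc1 lost, and the member median was -0.07. In the test that the 8 differences are equal, 0 of 43 members passed, 0 reached an unadjusted p under 0.05, beside 3.03% of all genes, and 0% of all genes were called (edgeR). The smallest member p was that of Psmg3, a core assembly chaperone at 0.0753 unadjusted, followed by Psmd3 at 0.143 and Psmc1 at 0.172. A larger difference at ZT9 than at other times was thus not shown by that test.

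**Figure D4:**
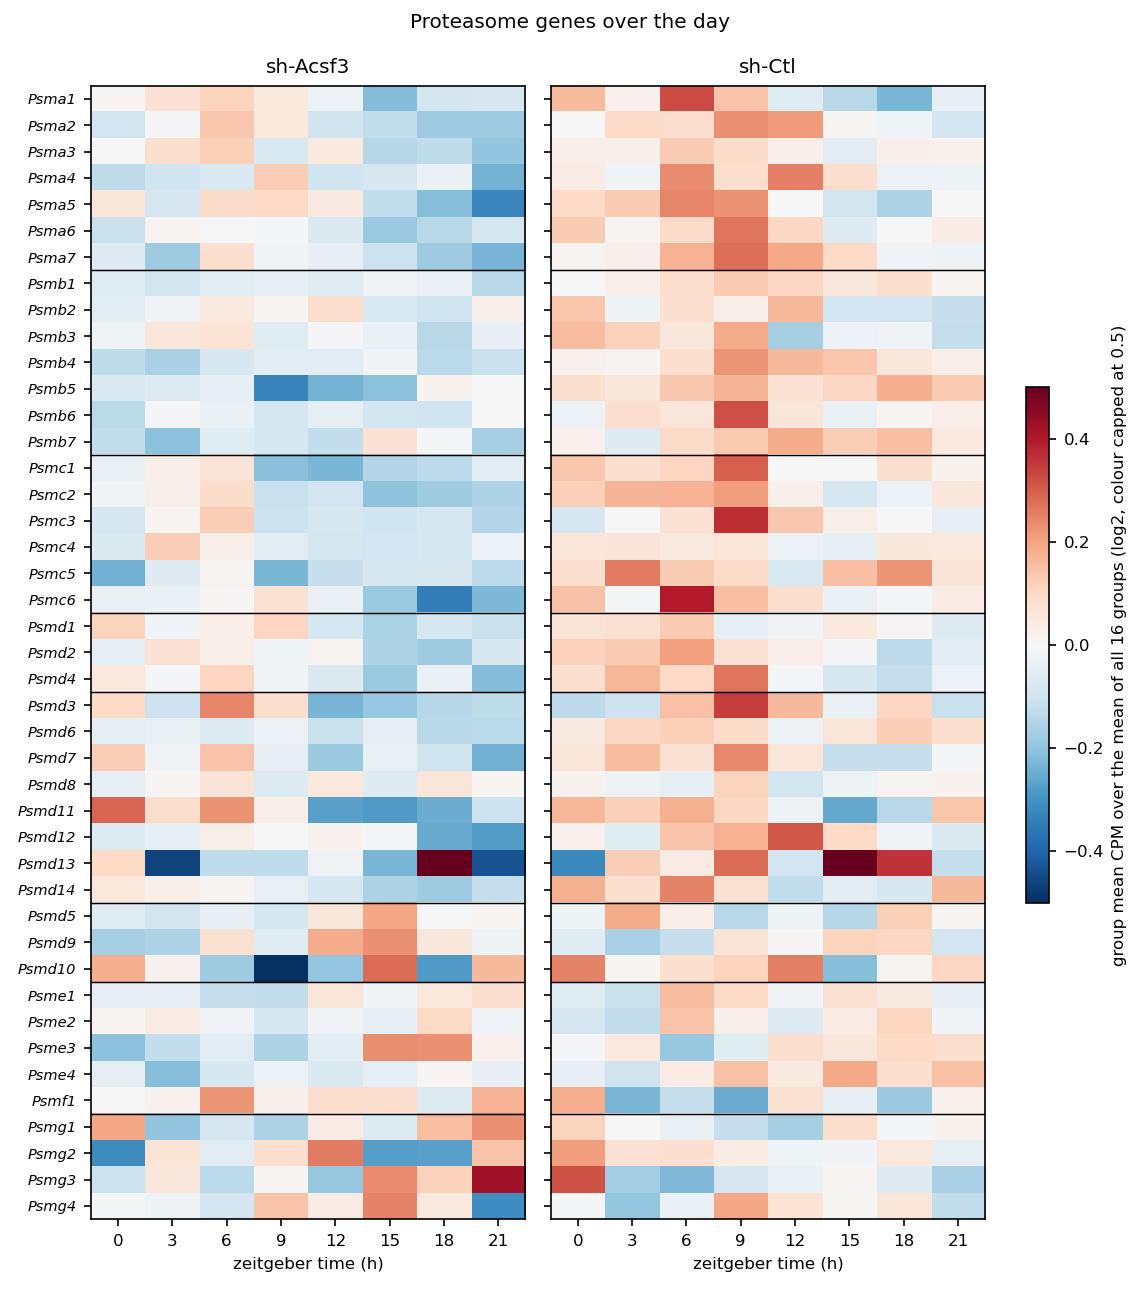
Group mean CPM of 43 proteasome genes (rows, by role, separated by lines) at 8 zeitgeber times in sh-Acsf3 (left) and sh-Ctl (right), as log2 over the gene's mean of all 16 groups, with the colour capped at 0.5. Most core and regulatory rows are red at ZT6 and ZT9 in sh-Ctl and blue at ZT15 to ZT21 in sh-Acsf3. Psmd13 and Psmd10, with few UMIs, show the strongest colours.

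The share of members called rhythmic lay above or below that of all genes by the test used, and amplitudes were low. By the mean of both treatments 19 of 43 members had a 24 h rhythm (2 df edgeR test, adjusted p under 0.05), beside 35.3% of all tested genes, and the median amplitude of the members was 0.09 log2, beside 0.14 over all genes. At an unadjusted p under 0.05 it was 25 of 43 (58.1%), beside 44.8% of all genes. Amplitude is the height of the fitted cosine above its mean. Of the 19 genes, 7 were core, 9 regulatory and 3 other. The 16 core and regulatory genes peaked in the light phase, between ZT3.12 and ZT9.59. The other 3 peaked in the dark phase, Psmd9 at ZT14.0, Psme3 at ZT17.0 and Psmg1 at ZT21.0. Over the window from ZT3 to ZT9, which was chosen after the peaks were seen, lay 15 of the 19 peaks (78.9%), beside 26.4% of the peaks of all rhythmic genes. A test that only asks whether the 8 time means differ called 8 of 43 members, all of them also among the 19. That was a smaller share than the 28.4% of all genes.

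Psmd11, a lid subunit that clamps the regulatory particle to the core, had the largest amplitude among the rhythmic members. At ZT0 it had 113, 103, 133 and 97.5 CPM in sh-Acsf3 and 98.6, 104, 99.7 and 107 CPM in sh-Ctl. At ZT15 it had 72.0, 73.3, 71.3 and 83.4 CPM in sh-Acsf3 and 66.1, 80.8, 82.0 and 77.0 CPM in sh-Ctl. All libraries of ZT0 lay above all libraries of ZT15 in both treatments. The amplitude was 0.23 ± 0.03 log2 with a peak at ZT3.22 ± 0.499 h (SE, adjusted p = 1.8e-08, edgeR), a peak-to-trough fold of 1.38.

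In the core, 6 of 7 alpha ring genes were called rhythmic and 1 of 7 beta ring genes (Psmb3). The counts depended on the scaling: with library size alone they were 7 of 7 alpha and 5 of 7 beta genes. With RLE factors, other filters, the replicate block, or without a replicate number or the Saa1-high or pancreas libraries they were 4 to 6 alpha and 0 to 1 beta genes. Psma1 peaked at ZT4.97 ± 0.676 h with an amplitude of 0.17 ± 0.03 (adjusted p = 1.96e-05), Psma5 at ZT6.45 ± 0.736 h with 0.17 ± 0.03 (adjusted p = 0.000104), Psma2 at ZT7.71 ± 0.841 h with 0.14 ± 0.03 (adjusted p = 0.000841) and Psma7 at ZT8.81 ± 0.781 h with 0.12 ± 0.03 (adjusted p = 0.000266), all in edgeR. The catalytic genes were not called, with amplitudes of 0.05 for Psmb5, 0.06 for Psmb6 and 0.08 for Psmb7, but Psmb6 and Psmb7 were called with library size alone and Psmb7 also without replicate 1. The difference between the rings was not tested. Among the regulatory genes, Psmc2 peaked at ZT4.56 ± 0.816 h with an amplitude of 0.13 ± 0.03 (adjusted p = 0.000484), Psmd4 at ZT5.42 ± 0.857 h with 0.13 ± 0.03 (adjusted p = 0.000955) and Psmd12 at ZT9.59 ± 0.866 h with 0.14 ± 0.03 (adjusted p = 0.00127). Both fell in sh-Acsf3 and rhythmic were 5 of 43 members (11.6%, beside 2.9% of all genes): Psma6, Psma7, Psmc2, Psmc6 and Psmd12. Of the rhythmic members 26.3% fell, while 14 of all 43 members fell. The 11.6% thus reflects how many members fell and how many were rhythmic, and a link between falling and rhythm was not tested.

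**Figure D5:**
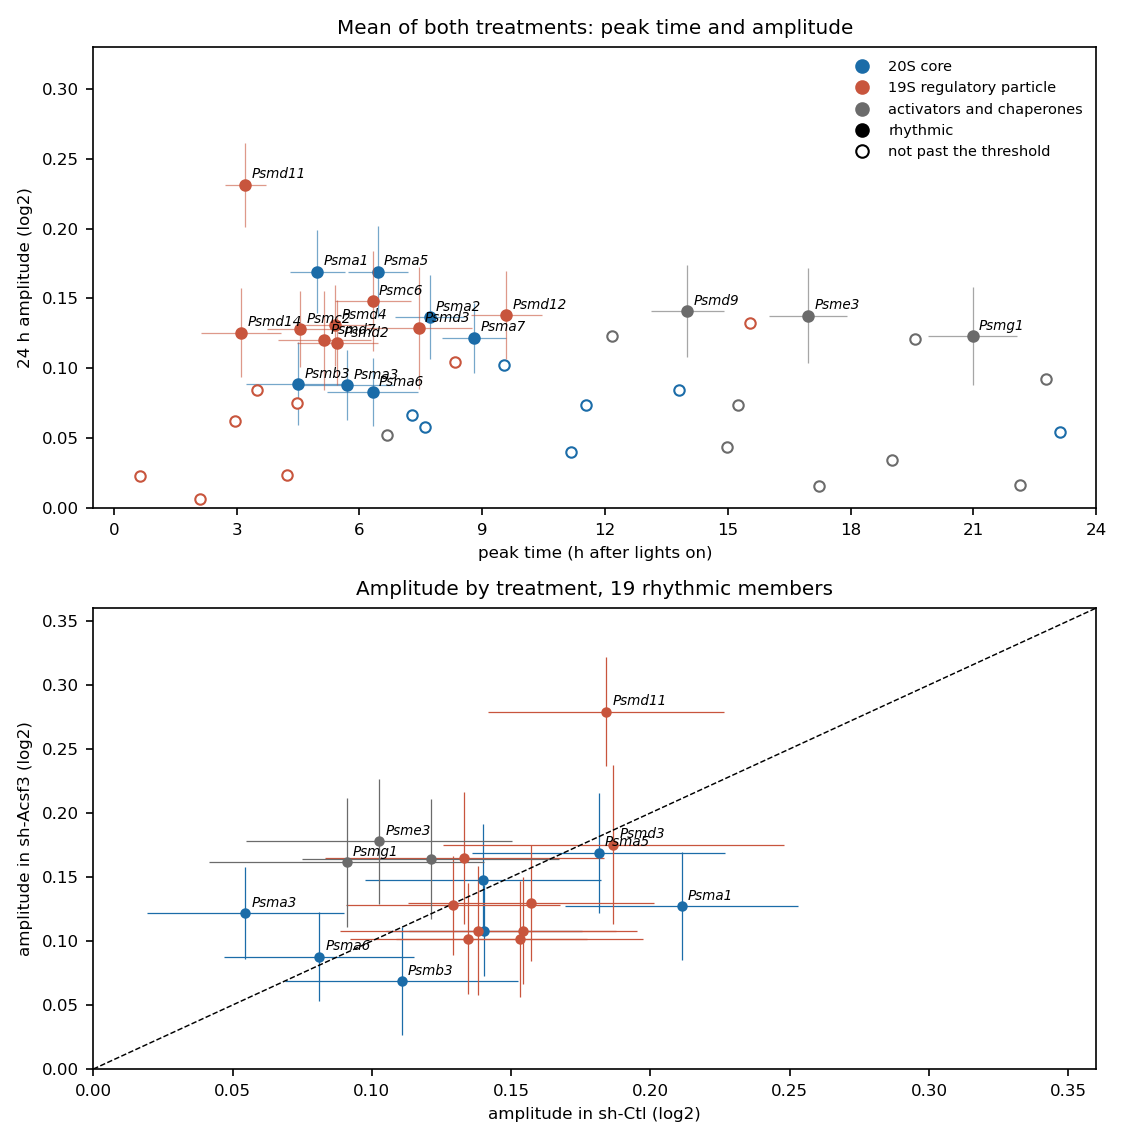
Top, amplitude of the 24 h rhythm (log2) against its peak time for 43 proteasome genes by the mean of both treatments, with bars of 1 SE for the 19 rhythmic genes (filled points). Bottom, amplitude in sh-Acsf3 against that in sh-Ctl for these 19 genes, with bars of 1 SE and a dashed line of equality. The rhythmic core and regulatory genes peak between ZT3.12 and ZT9.59, and Psmd11 stands highest in both panels.

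Within each treatment 9 of 43 members were rhythmic in sh-Acsf3 and 10 of 43 in sh-Ctl, shares close to the 19.6% and 19.4% of all genes. Called in both were 4 members. No member passed the test that its rhythm differs between the treatments (0 of 43 called, beside 0% of all genes, and 1 at an unadjusted p under 0.05, beside 4.27% of all genes, edgeR). That 1 was Psmd3, a lid gene, which peaked at ZT4.35 ± 1.37 h in sh-Acsf3 and ZT10.3 ± 1.24 h in sh-Ctl, with an unadjusted value of 0.0194 and an adjusted value of 0.999. The next were Psmd5 at 0.101 and Psmc3 at 0.149, both unadjusted. Psmd11 had an amplitude of 0.28 ± 0.04 in sh-Acsf3 and 0.18 ± 0.04 in sh-Ctl, and Psme3, the nuclear activator of the core, 0.18 ± 0.05 in sh-Acsf3 and 0.10 ± 0.05 in sh-Ctl. In Psma1 the amplitude was 0.13 ± 0.04 in sh-Acsf3 and 0.21 ± 0.04 in sh-Ctl, in Psma5 0.17 ± 0.05 in sh-Acsf3 and 0.18 ± 0.05 in sh-Ctl, and in Psma7 0.11 ± 0.04 in sh-Acsf3 and 0.14 ± 0.04 in sh-Ctl. Of all 43 members 19 had the larger amplitude in sh-Acsf3 (44.2%, beside 52.2% of all genes). A 12 h component was called in 0 of 43 members, beside 5.07% of all genes (edgeR). The smallest unadjusted values were 0.012 in Psmc5, the 1 member under 0.05 (2.33%, beside 17.4% of all genes), 0.0842 in Psma6 and 0.0885 in Psmd11.

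The rhythm counts within 1 treatment moved with single libraries. In sh-Acsf3 the count of 9 became 5 without ZT21 replicate 1 or ZT6 replicate 2, 4 without ZT15 replicate 4, 1 when the fit was made on the 32 sh-Acsf3 libraries alone, and 1 to 6 without a replicate number of every group. In sh-Ctl the count of 10 became 6 without ZT6 replicate 1 and 2 to 8 without a replicate number.

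Partners of the proteasome were examined in lists chosen with earlier results known. Across all tested genes 6.21% fell, and the counts of these short lists were not tested against that share. Of 12 tested proteasome parts and bound factors with other symbols 0 rose and 2 fell: Pomp, which matures the core, by 0.14 ± 0.04 (adjusted p = 0.0114), and the ubiquitin ligase Ube3c by 0.16 ± 0.05 (adjusted p = 0.0318, edgeR). The call of Pomp was lost without replicate 1, 2 or 3 and that of Ube3c without replicate 1, 3 or 4. The lid subunit Sem1 stood at -0.08 ± 0.03 (adjusted p = 0.051) and the ubiquitin receptor Adrm1 at -0.11 ± 0.05 (adjusted p = 0.129). The list's median was -0.08, beside -0.00849 over all genes. Of 18 genes for ubiquitin, its activation and shuttles 1 fell, beside 6.21% of all tested genes. That gene was the conjugating enzyme Ube2d3, which fell by 0.15 ± 0.03 (adjusted p = 0.000489, edgeR), and the list's median was -0.11.

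Of 15 genes of p97 (the segregase that pulls ubiquitinated proteins from membranes) and of degradation at the endoplasmic reticulum, 3 fell and 0 rose. Across all tested genes 6.21% fell and 8.26% rose. Derl2, a derlin of that pathway, fell by 0.33 ± 0.05 (adjusted p = 3.23e-07), Vcp, which encodes p97, by 0.12 ± 0.04 (adjusted p = 0.0175) and its cofactor Faf2 by 0.14 ± 0.05 (adjusted p = 0.0402, edgeR). Derl2 averaged 107 CPM in sh-Acsf3 and 134 CPM in sh-Ctl. Among 12 genes of transcriptional control, Mafg, a partner of Nfe2l1, fell by 0.18 ± 0.06 (adjusted p = 0.0428), and 0 rose. Nfe2l1 averaged 34.9 CPM in sh-Acsf3 and 37.3 CPM in sh-Ctl, a difference of -0.09 ± 0.05 that did not pass, and its processing protease Ddi2 stood at -0.13 ± 0.05 (adjusted p = 0.0669). Nfe2l2, the related factor of the oxidative stress response, stood at 0.15 ± 0.06 (adjusted p = 0.108). The calls of Faf2 and Mafg were lost without any one of the 4 replicate numbers, and that of Vcp without replicate 1, 2 or 3. Nfe2l1, and below Hspa8 and Hsp90ab1, were chosen for naming after their values were seen.

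The chaperones of the cytosol, which fold what the proteasome would otherwise degrade, peaked mostly in the dark phase. Of 19 genes 15 were rhythmic, beside 35.3% of all tested genes. Of their peaks 14 lay in the dark phase from ZT12 to ZT24 and 1 in the light phase. In the light phase 16 of the 19 rhythmic proteasome genes (84.2%) and 52.5% of all rhythmic genes peaked. Hspa8, the constitutive cytosolic chaperone, peaked at ZT16.7 with an amplitude of 0.47 (adjusted p = 5.01e-05), and Hsp90ab1 at ZT19.9 with 0.27 (adjusted p = 3.33e-06, edgeR). In the treatment comparison 1 of the 19 chaperone genes fell, beside 6.21% of all tested genes. It was the chaperonin subunit Cct8, by 0.13 ± 0.04 (adjusted p = 0.032, edgeR), a call lost without any one replicate number. Of 16 core clock genes and outputs all were rhythmic and 1 fell, beside 35.3% and 6.21% of all tested genes. The one that fell was Hlf, by 0.25 ± 0.06 (adjusted p = 0.00243, edgeR).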

How the data were processed

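The authors' deposited table holds raw UMI counts per gene for 64 libraries, without normalization. Per the labels' protocols, RNA was extracted from frozen liver with Nucleozol and the pipeline cited is that of Alpern and colleagues, known as BRB-seq, which counts transcripts at their 3' ends. STAR and the builds GRCm38 and mm10 are named in the submitters' processing notes, with roles, versions and annotation release not given in the sources used here. CPM are per library and not per length. Levels of single genes were not ranked against each other, and shares and ratios of summed CPM were given to compare the treatments.

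Tests on these counts used edgeR 4.0.16 under R 4.3.3 (filterByExpr over 16 groups, minimum count 10 and total 15, TMM, robust quasi-likelihood fits). One model had 16 group means (48 residual degrees of freedom), another fitted each treatment with its mean and a 24 h wave (58), and the last added a 12 h wave (54). The Benjamini-Hochberg adjustment covered all 10097 tested genes, at a threshold of 0.05. Scripts were tested on simulated data. Alternatives used limma 3.58.1 and DESeq2 1.42.0, other scalings, filters and left-out libraries; leaving out ZT9 was added after the data were seen. Members and lists were chosen with earlier results of these data known. Genes named were the catalytic genes, the 12 smallest p of the averaged contrast, the smallest in each role, the 8 smallest for rhythm, the 3 smallest in each other test, the untested members, the immunoproteasome and up to 4 genes per other list, with further members given as values. All 45 members were found in GENCODE M21, where 9 share bases with another gene on the same strand and 15 on the other. The counting's use of strand is not given in the sources used here. Of the members' copies, Psme2b held 386 UMIs over all libraries and Psma5-ps 38, others at most 5. Replicates of a group differed by more than counting error in all 96 pairs (lowest chi-square per degree of freedom 2.84). Figures used Python 3.11.15 and matplotlib 3.10.9.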

Additional observations from a re-analysis of the deposited data

Results flagged for a closer look

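In 4 of 116 groups of 4 libraries 1 library lay far from the other 3, where chance flags about 1 group in 20. In sh-Acsf3 ZT0 replicate 3 the log2 ratio of summed core to regulatory CPM was 0.24, against 0.44 to 0.45 in the other 3 libraries. Psmb5 had 32.6 CPM in sh-Acsf3 ZT12 replicate 4, against 26.4 to 27.3 CPM in the other libraries. Psmb7 had 89.6 CPM in sh-Ctl ZT18 replicate 4, against 83.7 to 84.6 CPM in the others. Psmd11 had 83.4 CPM in sh-Acsf3 ZT15 replicate 4, against 71.3 to 73.3 CPM in the others.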

How the results depend on the processing

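The fall of 14 members (8 core, 6 regulatory) became 4 (3 and 1) with library size alone and 8 (4 core) when every gene with a UMI was tested. It was 12 to 15 with RLE size factors, DESeq2, limma-voom, a mean CPM of at least 5, the replicate block and without ZT9, and the number that rose stayed at 0 under each. Without a replicate number it ran from 8 to 15 (core 5 to 8, regulatory 3 to 6, or up to 7 without a single library). The single call at ZT9 became 0 with library size alone, without a gene filter and without the Saa1-high or the pancreas libraries, and 2 with the replicate block. Over the fits without 1 replicate number it was 0, and over those without 1 library 0 to 1. Rhythmic members by both treatments numbered 16 to 25 under the scalings and filters, 13 to 16 without a replicate number and 8 by the test of equal time means. In sh-Acsf3 the 9 became 4 and in sh-Ctl the 10 became 6 without a gene filter. In sh-Acsf3 the fit on that treatment alone gave 1, fits without a replicate number gave 1 to 6 and those without a library 4 to 11. In sh-Ctl these gave 2 to 8 and 6 to 11. The 12 h count was 0 to 1 without a replicate number, and that test was not run without a gene filter. Same-numbered samples of a time correlated little more than others. Of 32 same-numbered pairs 7 correlated above 0.1 (median r 0.0238), beside 14 of 96 pairs with different numbers (median r -0.0163). Of 32 sh-Acsf3 libraries 12 correlated best with the sh-Ctl library of their own number. Whether replicate numbers pair the samples was not tested. The replicate block gave 15 falls, 14 of them shared, 9 and 11 rhythmic members in sh-Acsf3 and sh-Ctl and 19 by both. Psmb8 turned to -0.093 without replicate 3 (adjusted p = 0.788, edgeR) and reached 0.20 without replicate 2. The causes were not tested. Members under 10 CPM, such as Psmd10 and Psmd13, had standard errors of 0.10 and 0.15, so differences of the size seen here were not detectable for them.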
